A study of Homo sapiens with 6 samples.

Results

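Histone genes were followed in RNA sequencing libraries of H1299, an established human lung carcinoma line, after knockdown of CCNB1, the gene of cyclin B1. They were taken from the count table by symbol and gene type: protein-coding genes named HIST1 to HIST4, most of which lie in the histone gene clusters and which are called clustered here, and genes named H1F, H2AF or H3F3, called variant. Of 87 such genes, 76 had at least 1 count and are described here, 61 clustered and 15 variant, out of 34493 genes with a count in the whole table. Knockdown cells, stable transfectants with an shRNA against CCNB1 in the vector PLVT7, gave 3 libraries, and cells with the mock PLVT7 vector gave the other 3. Both were grown in medium with 10% fetal bovine serum and selected with 1 µg/ml puromycin at day 14 after confluence. The labels do not state whether a line is 1 clone or a pool, or whether the libraries of a group are separate cultures. A p-value here therefore speaks of spread among libraries, part of which may be technical.

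Replication-dependent histone genes are expressed mainly in S phase, supply the core and linker histones of newly made chromatin, and as a rule end their messages in a conserved stem-loop, bound by SLBP, in place of a poly(A) tail. Variant histones are made throughout the cell cycle from genes outside the clusters, mostly carry poly(A) tails and are placed by their own chaperones. In dividing cells the supply of clustered histones is known to be tied to DNA replication.

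The knockdown was visible in each library. CCNB1 was at 19.9, 29.9 and 16.1 CPM in the knockdown libraries, against 323, 305 and 294 CPM in the mock libraries, and it fell by edgeR's test, with a log2 fold change of -3.81 (SE 0.22), adjusted p = 0.000215. CPM are counts relative to library totals scaled by TMM, totals were 28122665 to 30332989 counts, and 3 counts corresponded to 0.0989 to 0.107 CPM. Of the 8 markers of blood, endothelial and stromal cells, 5 to 6 had a count in each knockdown library and 6 in each mock library, their summed level was 2.85 to 4.20 CPM in knockdown, against 2.32 to 2.67 CPM in mock, and PTPRC and CD3E were at 0. In these cells, labelled as lung adenocarcinoma, VIM was at 1741, 3331 and 1878 CPM in the knockdown libraries, against 3181, 3283 and 3145 CPM in the mock libraries. The epithelial keratins were also abundant and higher in each knockdown library. KRT8 was at 794, 456 and 931 CPM in the knockdown libraries, against 356, 309 and 343 CPM in the mock libraries, and KRT18 at 596, 379 and 715 CPM in the knockdown libraries, against 329, 293 and 292 CPM in the mock libraries, with log2 fold changes of 1.11 (SE 0.23) and 0.89 (SE 0.21), adjusted p = 0.105 and 0.118 by edgeR, and DESeq2 called both. CDH1, the gene of E-cadherin, and the alveolar markers NKX2-1, SFTPC and NAPSA stayed at up to 0.0627, 0.450, 0.0336 and 0.707 CPM in any library. The part of these marker levels in the histone values was not tested. Knockdown library 2 stood apart from knockdown libraries 1 and 3. The summed level of 22 S phase genes was 3105, 1413 and 3202 CPM in knockdown libraries 1 to 3, against 2508, 2177 and 2054 CPM in mock libraries 1 to 3, and results that rest on knockdown library 2 are given with and without it.

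The stem-loop that marks replication-dependent messages was searched as a fully paired stem of 6 bases, reading GG, 3 pyrimidines and T, around a loop of any 4 bases, after the coding part of GENCODE 29 transcripts with at least 40 annotated bases there. It was present in 31 of 36 clustered genes searched and in 1 of 15 variant genes, H2AFX, against 63 of 18907 protein-coding genes, or 0.333%. The 63 include these histone genes, and 31 of the 63 lie outside the set. Of 71 clustered genes with or without a count, 35 have no annotated base after the coding part and could not be searched. The forms found are shown because they set H4 genes apart from the other clustered genes with a match, with the stem in capitals and the loop in lower case.
HIST1H2AC, HIST2H2AA3 and 15 further H2A, H2B and H3 genes: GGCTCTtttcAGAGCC
HIST1H2BC, HIST1H2BD and 3 further genes: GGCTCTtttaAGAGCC
HIST1H4H, HIST1H4J and 3 further H4 genes: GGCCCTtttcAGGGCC
HIST1H4I, HIST2H4A and HIST2H4B: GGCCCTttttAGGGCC
HIST1H3E: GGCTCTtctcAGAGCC
H2AFX: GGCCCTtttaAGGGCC
Among the 31 clustered genes with a match, the 8 H4 genes have a GGCCCT stem and the H2A, H2B and H3 genes a GGCTCT stem. No match was found in HIST1H4C, HIST1H2AG, HIST1H2BJ, HIST1H1E and HIST1H1T. H2AFX, the variant H2A of the DNA damage response, carries the H4 type of stem. By the longest annotated tail of each gene, 22 clustered genes run more than 100 bases past the stem-loop, with a median of 430 bases over the 31 genes and a range of 6 to 1917. Some of the 22 also have a shorter annotated transcript, which ends 1 base after the stem-loop in HIST1H2BE and 5 bases after it in HIST1H2BN and HIST1H3E.

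Promoter letters also differed by class. Windows of 250 bases before and 50 after the RefSeq start (GRCh38.p14) were at hand for 70 of 76 genes and were searched on both strands for CCAAT, for TATAAA and for the octamer ATTTGCAT, each motif counted whether or not it overlapped another. CCAAT was in 47 of 57 clustered promoters, or 82.5%, and in 11 of 13 variant promoters, or 84.6%, against 39.7% of 27305 genes. It was in each H1, H2A, H2B and H3 promoter of the clusters and in 1 of 11 H4 promoters. The octamer, the site known from histone H2B promoters and bound by OCT1, was in 13 of 17 H2B and 8 of 12 H2A promoters of the clusters, in 0 of 6 H1, 0 of 11 H3 and 0 of 11 H4 promoters and in 1 of 13 variant promoters, against 2.19% of all genes. TATAAA was in 39 of 57 clustered promoters, or 68.4%, and in 4 of 13 variant promoters, or 30.8%, against 14.0% of all genes. The 250 bases before the start are shown for HIST1H2BC, which shares its divergent promoter with HIST1H2AC and was higher with it in knockdown libraries, for HIST1H2BD, which has no octamer in the window, and for H2AFX, with each motif or its reverse complement in capitals.
HIST1H2BC, chr6:26123927-26124176, minus strand: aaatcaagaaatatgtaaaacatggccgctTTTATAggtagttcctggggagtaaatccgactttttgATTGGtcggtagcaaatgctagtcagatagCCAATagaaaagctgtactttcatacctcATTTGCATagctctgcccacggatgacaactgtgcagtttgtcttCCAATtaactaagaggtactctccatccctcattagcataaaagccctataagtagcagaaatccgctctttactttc
HIST1H2BD, chr6:26157871-26158120, plus strand: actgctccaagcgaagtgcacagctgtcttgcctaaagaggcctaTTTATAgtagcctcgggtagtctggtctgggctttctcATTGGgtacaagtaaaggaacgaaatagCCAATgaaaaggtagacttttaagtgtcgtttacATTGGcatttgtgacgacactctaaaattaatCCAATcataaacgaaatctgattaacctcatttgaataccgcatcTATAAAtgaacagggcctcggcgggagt
H2AFX, chr11:119095466-119095715, minus strand: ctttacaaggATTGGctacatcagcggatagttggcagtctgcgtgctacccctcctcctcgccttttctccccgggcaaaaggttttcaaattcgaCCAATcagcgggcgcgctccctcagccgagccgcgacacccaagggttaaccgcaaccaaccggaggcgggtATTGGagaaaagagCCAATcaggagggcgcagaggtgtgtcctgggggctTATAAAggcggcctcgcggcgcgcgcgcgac
The window of HIST1H2AC is nearly the same stretch read on the plus strand, from 26123922 to 26124171, so its octamer and CCAAT motifs are those of HIST1H2BC. A match describes letters, not binding.

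Levels per length differed widely among the histone genes. FPKM values, which the authors deposited, divide counts by gene length and library total and are used here to compare genes with each other. The median level was 1.22 FPKM over 61 clustered genes and 38.0 FPKM over 15 variant genes, as a mean of the 6 libraries. HIST1H2BK, a clustered H2B gene, headed the order with 229.7 ± 23.4 FPKM in knockdown and 177 ± 15.0 FPKM in mock (SD, n = 3 each). H2AFZ, the gene of H2A.Z, followed with 200.01 ± 58.4 FPKM in knockdown and 181 ± 8.67 FPKM in mock (SD, n = 3 each), and these neighbours did not differ beyond their spread. H3F3B, one of the genes of the replacement histone H3, was at 80.6 ± 7.76 FPKM in knockdown and 111 ± 6.26 FPKM in mock (SD, n = 3 each), apart from HIST1H2BK and H2AFZ in both groups. H2AFB2, a short H2A known mainly from testis, was at 80.4 ± 3.87 FPKM in knockdown and 79.2 ± 8.34 FPKM in mock (SD, n = 3 each), so the knockdown values of H3F3B and H2AFB2 overlapped. H3F3A, the other gene of the same replacement histone, was at 47.0 ± 4.47 FPKM in knockdown and 53.3 ± 4.44 FPKM in mock (SD, n = 3 each). HIST1H2BK is annotated with its coding part alone, 381 bases, and 74.1% of its windows of 50 bases also occur in other genes, so its place at the head is uncertain. The place of H2AFB2 is uncertain too, as 100% of its windows also occur in H2AFB3. With nearly the same counts, H2AFB3 was at 47.3 FPKM in knockdown and 46.9 FPKM in mock. H2AFB3 is annotated with 591 bases and H2AFB2 with 348.

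**Figure D1:**
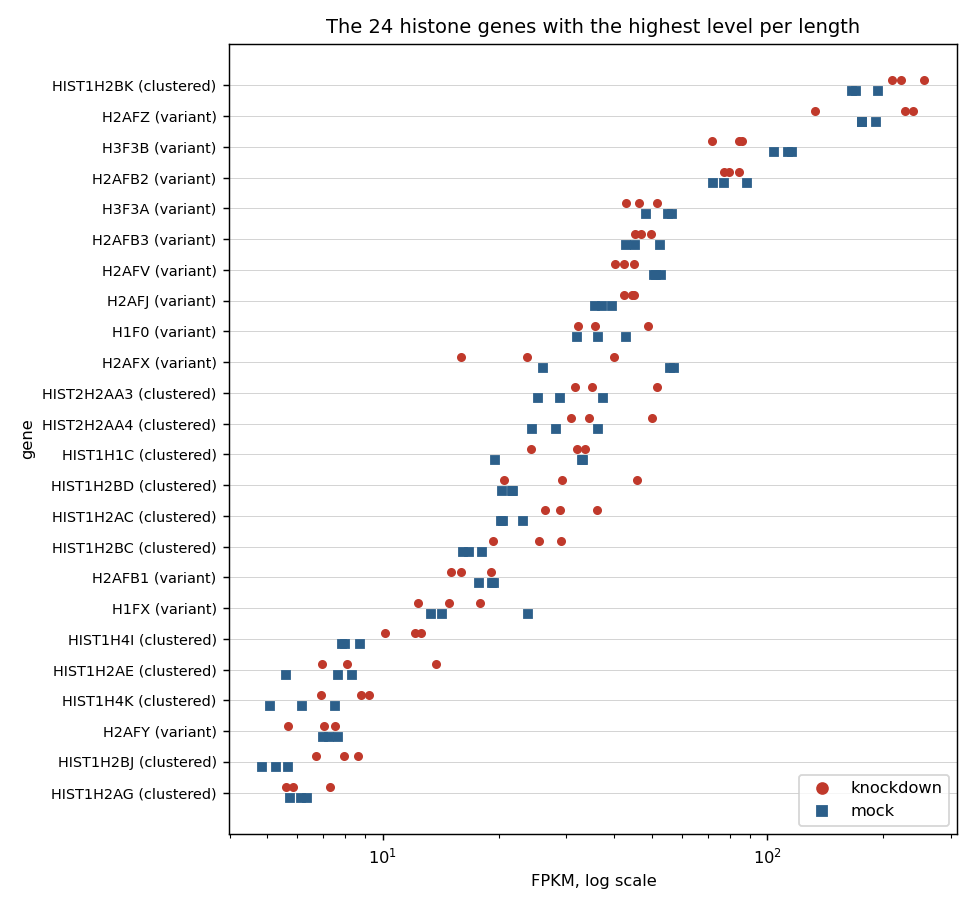
FPKM on a log axis for the 24 histone genes with the highest mean level, with knockdown libraries as red circles above mock libraries as blue squares in each line. HIST1H2BK, H2AFZ and H3F3B lead, and knockdown circles lie right of the mock squares for HIST1H2BK and left of them for H3F3B.

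Summed over genes in CPM, clustered histone RNA was higher and variant histone RNA lower in the knockdown libraries. The summed level of the 61 clustered genes was 334, 439 and 377 CPM in knockdown libraries 1 to 3, against 324, 293 and 313 CPM in mock libraries 1 to 3, or 383 ± 53.1 against 310.1 ± 16.0 CPM (SD, n = 3 each). The summed level of the 15 variant genes was 1847, 1645 and 1841 CPM in knockdown, against 2084, 1974 and 2140.2 CPM in mock, or 1778 ± 115 against 2066 ± 84.7 CPM (SD, n = 3 each). In neither sum did the groups overlap. Clustered over variant RNA was thus 0.181, 0.267 and 0.205 in knockdown libraries, against 0.156, 0.148 and 0.146 in mock libraries, with knockdown library 2 highest. The mean ratio was 1.45 times that of mock, and 1.28 times without knockdown library 2. On the authors' FPKM the ratio was 0.711, 1.02 and 0.796 in knockdown, against 0.631, 0.624 and 0.589 in mock, again without overlap. The variant sum overlapped between groups on that scale, at 699, 573 and 685 FPKM in knockdown, against 709.6, 654 and 714 FPKM in mock. Sums are descriptions of the libraries and carry no test. In bulk RNA, fewer cells in a phase of the cycle and less RNA per cell cannot be told apart.

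**Figure D2:**
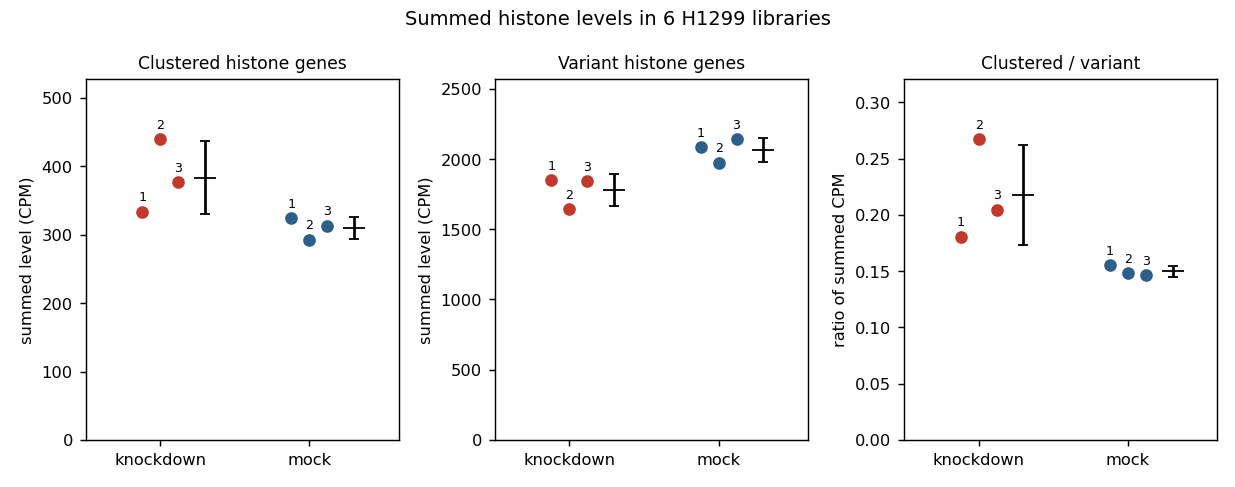
Summed CPM of 61 clustered and 15 variant histone genes and their ratio in each library, numbered by library, with the mean and SD of each group in black. The 3 knockdown libraries lie above the 3 mock libraries for clustered genes and for the ratio, where knockdown library 2 reaches 0.267, and below them for variant genes.

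Single genes were tested in 1 fit over 17349 genes. Of the 76 histone genes, 54 passed the filter on low counts, 41 clustered and 13 variant. The filter can let a gene pass through the group where it is higher, and the highest mean among the other 22 was 0.304 CPM (HIST1H3F). No histone gene passed an adjusted p of 0.05 in edgeR, against 4 genes or 0.0231% of those tested, and the lowest adjusted p was 0.125 (H3F3B). DESeq2 called 1 histone gene, H3F3B, against 3.45% of its genes. Without knockdown library 2 edgeR called 3 of the 76, H3F3B, HIST1H2BJ and HIST3H2A, against 13.8% of the genes then tested. At an unadjusted p under 0.05, 7 clustered and 0 variant genes were higher, against 8.14% of genes tested, and 1 clustered and 3 variant genes were lower, against 6.88%. All 3 knockdown libraries lay above all 3 mock libraries for 9 clustered genes and 1 variant gene, against 10.9% of genes tested. They lay below for 0 clustered and 3 variant genes, against 8.84%. The near-identical copies HIST2H4A and HIST2H4B are both among the 9 clustered genes above and the 7 higher at an unadjusted p under 0.05. The median log2 fold change was 0.21 over 41 clustered genes with 29 higher, -0.16 over 13 variant genes with 4 higher, and 0.02 over all genes tested with 9240 higher. Without knockdown library 2 the clustered median was 0.04.

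**Figure D3:**
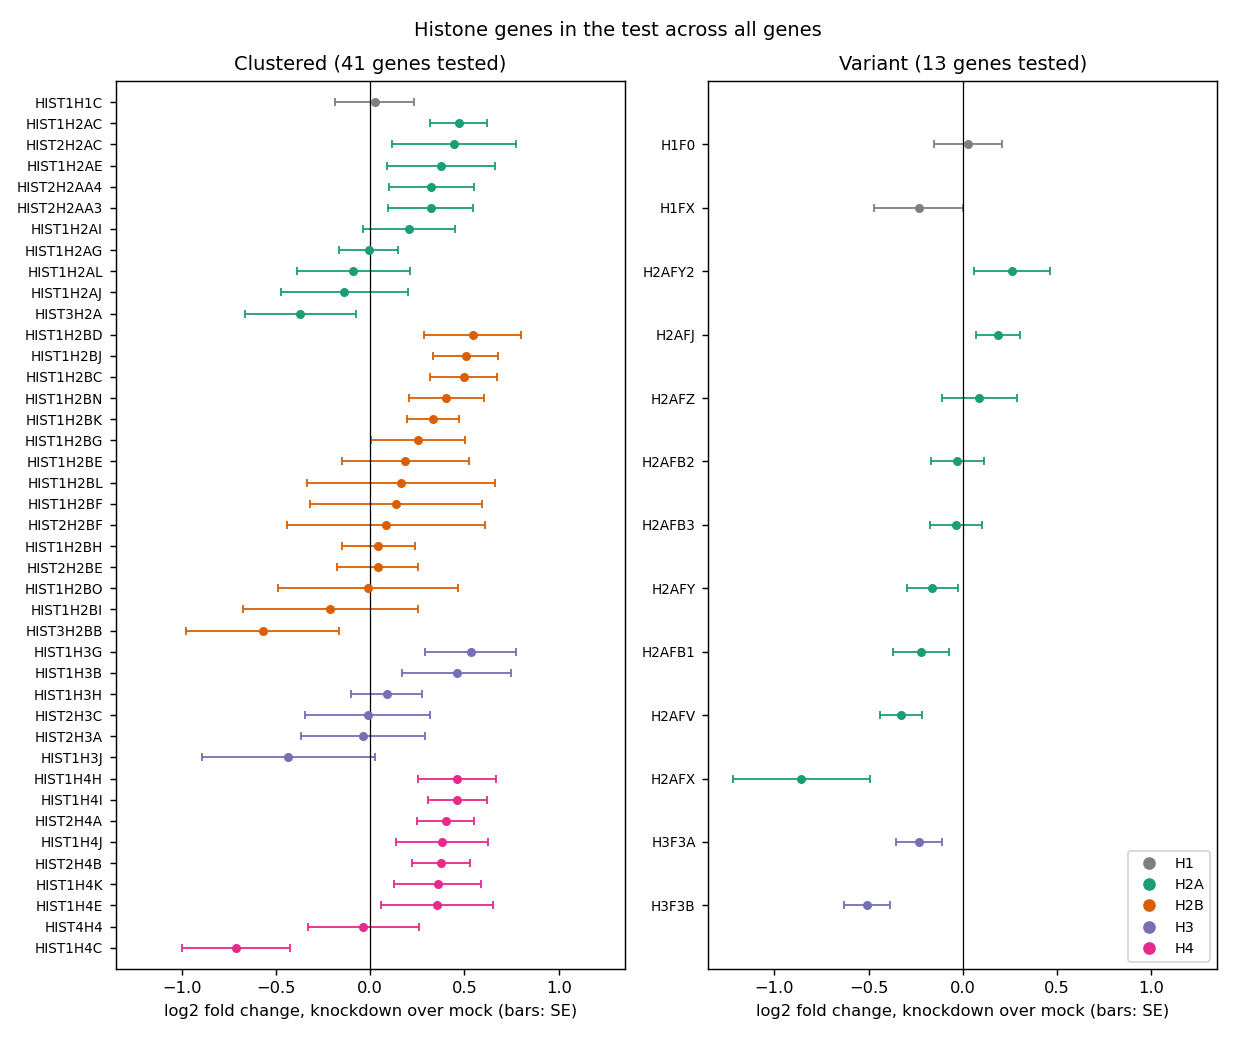
Log2 fold change of knockdown over mock with its SE for the 41 clustered and 13 variant histone genes tested, grouped and coloured by histone class. Clustered H2A, H2B and H4 genes lie mostly right of 0 and both H3F3 genes left of it, and none passed the adjusted threshold in edgeR.

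Clustered H2A and H2B genes made up most of the difference in the clustered sum and 4 of the 7 genes higher at an unadjusted p under 0.05. Summed over 13 H2A genes the level was 102, 151 and 109 CPM in knockdown, against 106, 87.7 and 101 CPM in mock, and over 17 H2B genes 151, 199.7 and 186 CPM in knockdown, against 153, 134 and 137 CPM in mock. In both sums knockdown library 1 lay within the mock range and libraries 2 and 3 above it. HIST1H2AC (ENSG00000180573, chromosome 6 from 26124145 to 26139116, plus strand) was at 45.9, 60.3 and 44.3 CPM in the knockdown libraries, against 35.2, 34.1 and 39.4 CPM in the mock libraries. Its divergent neighbour HIST1H2BC (ENSG00000180596, chromosome 6 from 26114873 to 26123926, minus strand) was at 15.4, 24.3 and 21.3 CPM in the knockdown libraries, against 14.5, 15.0 and 13.8 CPM in the mock libraries. The groups did not overlap for either gene of the pair. Their log2 fold changes were 0.47 (SE 0.15) and 0.50 (SE 0.18), adjusted p = 0.198 and 0.238 by edgeR. Both genes were highest in knockdown library 2, and without it the log2 fold changes were 0.31 and 0.34. HIST1H2BK (ENSG00000197903, chromosome 6 from 27146418 to 27146798, minus strand) was at 80.5, 80.4 and 97.9 CPM in the knockdown libraries, against 76.7, 62.7 and 66.2 CPM in the mock libraries, a log2 fold change of 0.33 (SE 0.14). HIST1H2BJ (ENSG00000124635, chromosome 6 from 27125897 to 27132750, minus strand) was at 7.80, 6.36 and 7.57 CPM in the knockdown libraries, against 5.59, 4.59 and 5.12 CPM in the mock libraries, with 0.51 (SE 0.17) on the log2 scale. Both were higher in 3 of 3 knockdown libraries, adjusted p = 0.302 and 0.218 by edgeR. For HIST1H2BJ the adjusted p was 0.0379 without knockdown library 2, within a range of 0.0379 to 0.541 over the alternatives.

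Other abundant H2A and H2B genes were highest in knockdown library 2 and overlapped between the groups. HIST1H2BD was at 17.1, 40.0 and 25.6 CPM in the knockdown libraries, against 19.7, 17.6 and 19.3 CPM in the mock libraries, so knockdown libraries 2 and 3 lay above the mock libraries and knockdown library 1 below them. Its log2 fold change of 0.54 (SE 0.26) was 0.18 without knockdown library 2. HIST2H2AA3 was at 16.5, 28.3 and 19.3 CPM in the knockdown libraries, against 21.3, 13.8 and 16.2 CPM in the mock libraries, and HIST2H2BE at 9.53, 16.5 and 9.75 CPM in the knockdown libraries, against 11.9, 11.7 and 11.2 CPM in the mock libraries, again with knockdown library 2 highest. HIST2H2AA3 had a log2 fold change of 0.32 (SE 0.23), and of 0.06 without knockdown library 2. HIST2H2BE had a log2 fold change of 0.04 (SE 0.22), near 0 and of either sign over the alternatives. HIST1H2AG was at 12.5, 16.4 and 12.7 CPM in the knockdown libraries, against 14.4, 12.8 and 14.6 CPM in the mock libraries, with groups that overlapped and a log2 fold change of -0.01 (SE 0.16), which was 0.04 when libraries were scaled by total alone. HIST3H2A, named after its values were seen, ran the other way at 2.91, 6.54 and 3.60 CPM in the knockdown libraries, against 5.10, 4.83 and 6.89 CPM in the mock libraries, adjusted p = 0.584 by edgeR, 0.0417 without knockdown library 2 and 0.0417 to 0.900 over the alternatives. Over the class, 6 of 10 H2A genes and 12 of 15 H2B genes tested were higher, with medians of 0.26 and 0.16 on the log2 scale.

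The H4 genes had the highest class median, 0.37, with 7 of 9 tested higher. Their summed level was 46.6, 52.5 and 51.2 CPM in knockdown libraries, against 40.1, 36.6 and 41.6 CPM in mock libraries, with no overlap and with knockdown library 2 close to library 3. HIST1H4I (ENSG00000276180, chromosome 6 from 27138588 to 27139881, plus strand) was at 12.5, 15.7 and 16.3 CPM in the knockdown libraries, against 11.7, 10.2 and 10.4 CPM in the mock libraries, 0.46 (SE 0.16) on the log2 scale, adjusted p = 0.219 by edgeR. HIST2H4A (ENSG00000270882, chromosome 1 from 149832659 to 149839767, plus strand) was at 10.2, 11.1 and 10.4 CPM in the knockdown libraries, against 8.06, 7.16 and 8.76 CPM in the mock libraries, with 0.40 (SE 0.15), and its copy HIST2H4B at 10.3, 11.3 and 10.4 CPM in the knockdown libraries, against 8.59, 7.13 and 8.96 CPM in the mock libraries, with 0.37 (SE 0.15). These copies share nearly all of their sequence and count as 1 observation. Both are nevertheless counted in the 7 of 9 and in the class median, which is the value of HIST2H4B. HIST1H4J and HIST1H4K, which also share most of their sequence, are likewise both among the 9 tested. HIST1H4H was at 4.48, 4.70 and 3.93 CPM in the knockdown libraries, against 2.50, 3.28 and 3.74 CPM in the mock libraries, without overlap, adjusted p = 0.334 by edgeR. HIST1H4C (ENSG00000197061, chromosome 6 from 26103876 to 26104310, plus strand) was the clustered gene lower at an unadjusted p under 0.05. It was at 1.75, 1.17 and 1.14 CPM in the knockdown libraries, against 2.15, 1.69 and 2.84 CPM in the mock libraries, and knockdown library 1 overlapped mock library 2. Its log2 fold change was -0.71 (SE 0.29), adjusted p = 0.287 by edgeR.

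Clustered H3 genes did not share a direction gene by gene. Of 12 H3 genes with a count 6 were tested, 3 higher and 3 lower, and their median was 0.04 on the log2 scale. Summed over the 12 genes the level was 13.4, 13.8 and 14.7 CPM in knockdown, against 12.3, 13.3 and 11.8 CPM in mock, higher without overlap. On FPKM the sum was 12.5 ± 0.381 in knockdown and 11.4 ± 0.644 in mock (SD, n = 3 each), and the groups overlapped, with knockdown library 1 at 12.04 and mock library 2 at 12.08. HIST1H3H was at 5.20, 6.71 and 7.20 CPM in the knockdown libraries, against 6.54, 6.21 and 5.23 CPM in the mock libraries, and HIST1H3B at 1.22, 1.48 and 1.24 CPM in the knockdown libraries, against 0.774, 0.847 and 1.25 CPM in the mock libraries, each with overlapping groups. HIST1H3G was at 4.95, 3.32 and 3.90 CPM in the knockdown libraries, against 2.46, 3.60 and 2.35 CPM in the mock libraries, where mock library 2 lay above knockdown library 2 and the log2 fold change was 0.53 (SE 0.24), and 0.34 without knockdown library 1. HIST2H3C was at 0.501, 0.813 and 0.706 CPM in the knockdown libraries, against 0.563, 0.706 and 0.761 CPM in the mock libraries, under 1 CPM throughout, with a log2 fold change of -0.01 (SE 0.33) that was 0.03 when libraries were scaled by total alone. Among linker histones HIST1H1C was the single clustered H1 gene tested, at 19.5, 21.6 and 15.6 CPM in the knockdown libraries, against 13.1, 21.0 and 21.7 CPM in the mock libraries, with mock library 1 lowest of the 6. Per length it was at 30.0 ± 5.00 FPKM in knockdown and 28.5 ± 7.74 FPKM in mock (SD, n = 3 each), rank 13 of the 76 genes. HIST1H1E, HIST1H1B and HIST1H1T did not pass the filter, at up to 0.389, 0.313 and 0.0673 CPM in any library.

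Both genes of the replacement histone H3, which is laid down outside replication and at active genes, were lower in knockdown. H3F3B (ENSG00000132475, chromosome 17 from 75776434 to 75785893, minus strand) was at 492, 526 and 442 CPM in the knockdown libraries, against 661, 689 and 724 CPM in the mock libraries, or 487 ± 42.6 CPM in knockdown and 691 ± 31.6 CPM in mock libraries (SD, n = 3 each). The groups stood well apart, with the highest knockdown library below the lowest mock library. The log2 fold change was -0.51 (SE 0.12), and the adjusted p was 0.125 by edgeR, 0.0106 in DESeq2, 0.00973 without knockdown library 2 and 0.00973 to 0.449 over the alternatives. H3F3A (ENSG00000163041, chromosome 1 from 226061851 to 226072001, plus strand) was at 154, 135 and 147 CPM in the knockdown libraries, against 158, 177 and 177 CPM in the mock libraries, also without overlap, with -0.23 (SE 0.12) on the log2 scale, adjusted p = 0.399 by edgeR. H3F3C stayed at up to 0.318 CPM and was not tested. The summed level of the 3 genes was 647, 661 and 588 CPM in knockdown, against 819, 866 and 902 CPM in mock, so the variant H3 class was lower in each knockdown library, library 2 included. Most of the difference in the variant sum lay in this class, and most of it in the single gene H3F3B. The means of the class were 632 ± 38.6 CPM in knockdown and 862 ± 41.5 CPM in mock (SD, n = 3 each).

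Variant H2A genes did not share a direction, with 3 of 9 tested higher and a median log2 fold change of -0.04. H2AFX (ENSG00000188486, chromosome 11 from 119093854 to 119095467, minus strand), whose protein is phosphorylated at DNA breaks, was at 36.4, 25.8 and 64.6 CPM in the knockdown libraries, against 93.5, 41.7 and 94.6 CPM in the mock libraries. Mock library 2 lay within the range of the knockdown libraries, so the groups overlapped. The log2 fold change was -0.86 (SE 0.36), and the adjusted p was 0.311 by edgeR and 4.05e-06 to 0.687 over the alternatives, 4.05e-06 being that with no filter on low counts. The log2 fold change was -0.60 without knockdown library 2 and -1.30 without knockdown library 3. H2AFV (ENSG00000105968, chromosome 7 from 44826791 to 44848083, minus strand), the gene of a close relative of H2A.Z, was at 203, 202 and 191 CPM in the knockdown libraries, against 254, 249 and 246 CPM in the mock libraries, with tight groups that did not overlap. Its log2 fold change was -0.33 (SE 0.11), adjusted p = 0.222 by edgeR. H2AFZ itself was at 524, 306 and 526 CPM in the knockdown libraries, against 458, 403 and 416 CPM in the mock libraries, so knockdown libraries 1 and 3 were above the mock libraries and library 2 below them. Its log2 fold change of 0.09 (SE 0.20) was 0.30 without knockdown library 2. H2AFJ, an H2A known to build up in senescent cells, was at 142, 143 and 152 CPM in the knockdown libraries, against 138, 119 and 127 CPM in the mock libraries, higher without overlap, with 0.19 (SE 0.12) on the log2 scale, adjusted p = 0.489 by edgeR. H2AFY, the gene of a macroH2A, was at 118, 101 and 134 CPM in the knockdown libraries, against 133, 123 and 139 CPM in the mock libraries, with overlap.

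The linker histone variants did not differ between the groups beyond their spread. H1F0, known from differentiated and resting cells, was at 79.5, 115 and 75.6 CPM in the knockdown libraries, against 78.0, 84.4 and 102 CPM in the mock libraries, or 90.0 ± 21.7 CPM in knockdown and 88.3 ± 12.7 CPM in mock libraries (SD, n = 3 each), with knockdown library 2 highest and a log2 fold change of 0.03 (SE 0.18). H1FX was at 21.3, 18.7 and 27.1 CPM in the knockdown libraries, against 22.3, 19.9 and 36.7 CPM in the mock libraries, with mock library 3 highest and -0.23 (SE 0.24) on the log2 scale. H1FNT had counts in knockdown library 1 alone, at 0.0627 CPM, which is under the floor of 3 counts.

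**Figure D4:**
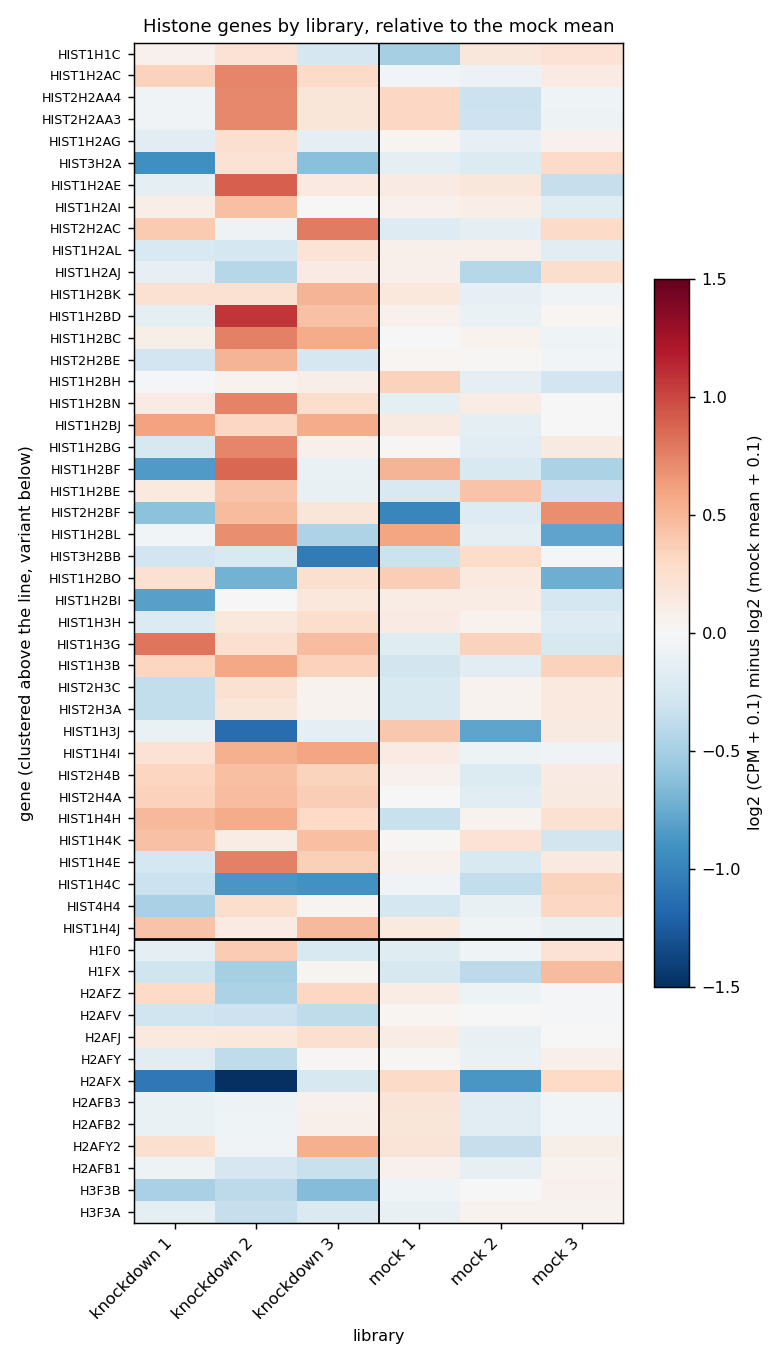
Log2 level of each tested histone gene in each library relative to the mock mean, with clustered genes above the line and variant genes below it, and knockdown libraries left of mock libraries. Red is higher and blue lower than the mock mean; many clustered genes are red in knockdown library 2, and H3F3B and H3F3A are blue in the 3 knockdown libraries.

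Clustered histone levels were highest in knockdown library 2. Relative to the mock mean, the median of the 41 clustered genes was -0.05, 0.31 and 0.18 on the log2 scale in knockdown libraries 1, 2 and 3, and 18, 34 and 31 of them lay above that mean. The median of the 13 variant genes was -0.14, -0.31 and 0.02. The median of 22 S phase genes was 0.54, -0.72 and 0.44, so the knockdown library with the highest clustered median had the lowest S phase median. PCNA, the sliding clamp of DNA polymerase, was at 119, 46.7 and 118 CPM in the knockdown libraries, against 90.6, 82.4 and 68.8 CPM in the mock libraries. MCM6, a subunit of the replicative helicase, was at 235, 101 and 225 CPM in the knockdown libraries, against 122, 113 and 87.7 CPM in the mock libraries, and CCNE1, the gene of cyclin E1, at 20.6, 8.34 and 16.8 CPM in the knockdown libraries, against 8.90, 7.45 and 8.34 CPM in the mock libraries. Knockdown library 2 lay within the mock range for MCM6 and CCNE1 and below it for PCNA. VIM in knockdown library 2, given above, was also close to its mock values. The part of these differences in the histone values was not tested.

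The transcripts of histone supply and handling were read from 4 lists. In these, 0 genes passed the threshold in the main edgeR fit, against 0.0231% of all genes tested. In DESeq2 1 gene, ANP32E, passed it, against 3.45% of all genes. Of 20 genes of histone transcription and message processing, 12 were higher and 8 lower, the median was 0.02 on the log2 scale, and an unadjusted p under 0.05 was reached by 1 higher and 2 lower genes, against 8.14% higher and 6.88% lower of all genes tested. SLBP, the stem-loop binding protein, was at 108, 70.3 and 99.0 CPM in the knockdown libraries, against 82.5, 86.0 and 84.2 CPM in the mock libraries, and NPAT, the coactivator of histone gene transcription, at 31.6, 26.0 and 32.3 CPM in the knockdown libraries, against 30.8, 39.6 and 35.0 CPM in the mock libraries. Neither differed beyond its spread, and SLBP was lowest in knockdown library 2. ZNF473, a factor of U7-dependent processing of histone message ends, was at 19.8, 15.1 and 19.0 CPM in the knockdown libraries, against 13.4, 10.6 and 13.3 CPM in the mock libraries, with 0.53 (SE 0.16) on the log2 scale, adjusted p = 0.184 by edgeR. ERI1, an exonuclease of histone message decay, was at 39.5, 31.4 and 32.3 CPM in the knockdown libraries, against 39.5, 46.3 and 46.5 CPM in the mock libraries, and UPF1, a helicase that the same decay needs, at 97.3, 108 and 119 CPM in the knockdown libraries, against 148, 126 and 133 CPM in the mock libraries. ERI1 and UPF1 had log2 fold changes of -0.36 (SE 0.14) and -0.33 (SE 0.13), adjusted p = 0.277 and 0.278 by edgeR.

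Of 13 genes of variant histone chaperones and exchangers, CENPA included, 9 were lower, against 8109 of 17349 over all genes tested. Their median was -0.14 on the log2 scale. At an unadjusted p under 0.05, 3 were lower and 0 higher, against 6.88% and 8.14% of all genes. ANP32E, which removes H2A.Z from chromatin, was at 117, 99.8 and 78.3 CPM in the knockdown libraries, against 126, 174 and 164 CPM in the mock libraries, -0.65 (SE 0.18) on the log2 scale, adjusted p = 0.155 by edgeR. HIRA, the chaperone of the replacement histone H3, was at 13.1, 11.2 and 14.1 CPM in the knockdown libraries, against 18.9, 14.8 and 17.0 CPM in the mock libraries, with -0.40 (SE 0.16), and HJURP, the chaperone of the centromeric H3, at 133, 141 and 115 CPM in the knockdown libraries, against 171, 165 and 158 CPM in the mock libraries, with -0.34 (SE 0.12). In ANP32E, HIRA and HJURP, named for the lowest p of the list, the knockdown libraries lay below the mock libraries without overlap. Over the 13 genes this held for 4, against 8.84% of all genes tested. The knockdown libraries lay above without overlap for 1 of the 13, against 10.9%. CENPA, the centromeric H3 itself, was at 29.3, 23.3 and 26.9 CPM in the knockdown libraries, against 20.6, 27.9 and 34.3 CPM in the mock libraries, with overlap. Of 13 tested chaperones of replication-coupled assembly 7 were higher, with a median of 0.05 and 1, RBBP4, higher at an unadjusted p under 0.05, against 8.14% of all genes. RBBP4, a subunit of the assembly factor CAF-1, was at 168, 148 and 172 CPM in the knockdown libraries, against 131, 143 and 126 CPM in the mock libraries, MMS22L, a partner of the H3-H4 reader TONSL, at 79.1, 52.0 and 69.1 CPM in the knockdown libraries, against 75.4, 88.8 and 81.1 CPM in the mock libraries, and SSRP1, a subunit of FACT, at 213, 192 and 226 CPM in the knockdown libraries, against 248, 232 and 228 CPM in the mock libraries. Of the 22 S phase genes 18 were higher, against 9240 of 17349 over all genes tested, with a median of 0.15. An unadjusted p under 0.05 was reached by 2 higher genes, CCNE1 and MCM6, and 1 lower gene, POLA1, the catalytic subunit of DNA polymerase alpha, at 47.6, 31.2 and 44.7 CPM in the knockdown libraries, against 57.8, 54.0 and 51.7 CPM in the mock libraries. Over all genes tested these shares were 8.14% and 6.88%. The log2 fold changes of CCNE1, MCM6, POLA1 and PCNA were 0.89, 0.80, -0.40 and 0.23 with all libraries. Without knockdown library 2 they were 1.18, 1.10, -0.24 and 0.55. Adjusted p by edgeR with all libraries was 0.195, 0.229, 0.295 and 0.747. Over the alternatives, DESeq2 included, it ran over 0.000890 to 0.513, 0.000133 to 0.600, 0.120 to 0.597 and 0.0215 to 0.995, in that order.

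Genes were also read by how their 3′ ends are annotated. Of 10 tested clustered genes with no annotated base after the coding part, 5 were higher, with a median of 0.01 on the log2 scale. Of 21 with more than 100 annotated bases after the stem-loop in the longest tail, 16 were higher, with a median of 0.19. Of 7 with a stem-loop and up to 100 bases after it, 7 were higher, with a median of 0.32. Median GC content was 60.1%, 47.2% and 59.6% in these sets, which also hold near-identical copies, and the part of either was not tested. Whether the libraries were selected for poly(A) is not given in the sources used here, and the share of clustered transcripts that they could capture is unknown.

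Near-identical copies limit what single genes show. HIST2H2AA3 and HIST2H2AA4 differed by at most 2 counts in any library, at 390 to 801 counts in the first. HIST2H3A and HIST2H3C were equal in 5 of 6 libraries and differed by 1 count in the other. H2AFB2 and H2AFB3 differed by at most 6 counts, and HIST2H4A and HIST2H4B by at most 15. HIST1H4J and HIST1H4K parted more, by up to 30 counts, with 268 and 400 counts over the 6 libraries. Each copy of the other pairs shares at least 97.1% of its 50-base windows with other genes, so their counts cannot be told apart and are uncertain. HIST1H4K shares 100% of its windows with HIST1H4J, and HIST1H4J shares 81.2% with HIST1H4K. Their coding parts are identical, so the counts of this pair are uncertain too. How reads that map to several places were counted is not given in the sources used here. Over all members, 12 of 61 clustered and 3 of 15 variant genes share at least 50% of their windows. The exons of 10 clustered and 6 variant genes overlap those of another gene, and the strand setting is not given in the sources used here. Of 11 histone genes with 0 counts in the 6 libraries, 5 (HIST1H2AD, HIST1H2AK, HIST1H2AM, HIST1H3D and HIST2H3PS2) have at least 88.0% of their exon bases inside another gene's exons, so a count of 0 there does not show an absent transcript.

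**Figure D5:**
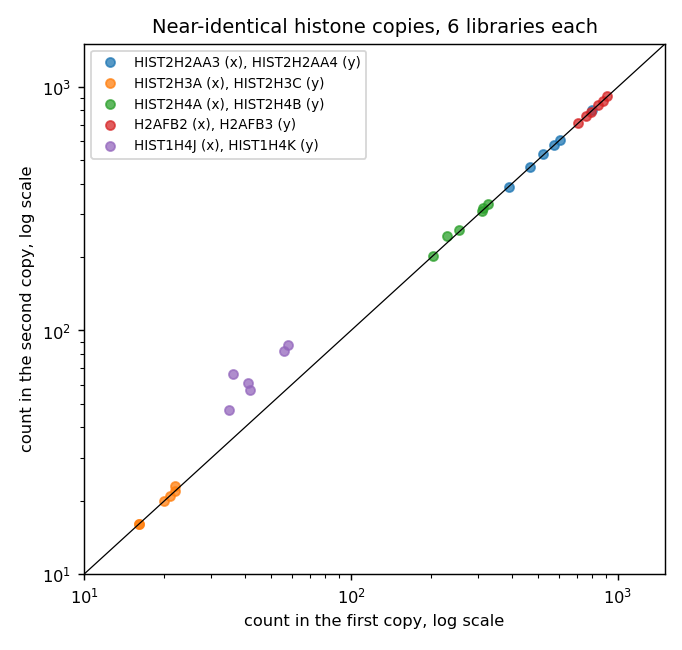
Counts of 5 pairs of near-identical histone genes in the 6 libraries, first copy on the x axis and second on the y axis, both log scales, with the line of equal counts. The pairs lie on the line except HIST1H4J and HIST1H4K, where HIST1H4K is higher.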

How the data were processed

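RNA of 3 knockdown and 3 mock libraries was sequenced. Libraries were made from total RNA with a NEBNext Ultra RNA kit, per the labels' protocols. Per the file headers, the authors deposited gene tables of raw counts and of FPKM. The submitters' processing notes list featureCounts 2.0.3, HISAT2 2.1.0, bcl2fastq 2.20 and DESeq2, with GRCh38.p13 as the build. The annotation, strand and multi-mapping settings are not given in the sources used here. Groups and replicate numbers came from sample titles, and 0 columns of other samples were present. Chi-square per degree of freedom was at least 14.2 for each pair of libraries in a group, so all 6 were counted separately.

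Genes were kept by filterByExpr, 17349 of 58336, scaled by TMM and tested with edgeR 4.0.16 (quasi-likelihood F test) in R 4.3.3, with Benjamini-Hochberg adjustment over all genes tested and a threshold of 0.05. The SE comes from the fold change and F. Log2 ratios to the mock mean used a pseudocount of 0.1 CPM. The scripts were tested on simulated counts. The text names CCNB1, histone genes past the threshold or with an unadjusted p under 0.05, up to 4 of the highest mean CPM per class, and from lists SLBP, NPAT, CENPA, PCNA and up to 3 further genes of lowest p each. Histone genes and lists were chosen with earlier results of these data known. Alternatives were RLE scaling, library totals, no filter, DESeq2 1.42.0, a replicate block and leaving out each library; for sums also FPKM, a minimum of 1 CPM and identical copies counted once.

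Lengths implied by counts and FPKM matched GENCODE 29 exon lengths within 0.5 bases for 33609 of 34493 genes, or 97.4%, and for the 76 histone genes, so its GRCh38 positions are given. Intervals and floors cover counting error only.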

Additional observations from a re-analysis of the deposited data

How the results depend on the processing

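The number of genes called depended on the tool and on single libraries. Against 4 genes in edgeR, 2 were called with libraries scaled by total alone, 1077 with no filter on low counts (2 histone genes, H2AFX and H3F3B), 564 in DESeq2 (1 histone gene, H3F3B) and 1 to 2453 when a library was left out. The 2453, with 3 histone genes, came without knockdown library 2, and each other library left out gave 1 gene and 0 histone genes, so the count of histone genes ran over 0 to 3. The fit with replicate numbers as a block called 162 genes and 1 histone gene, H2AFX at an adjusted p of 0.0382. Same-numbered libraries correlated at -0.19, 0.11 and 0.07 over 17349 genes in their deviations from the group means. Libraries with different numbers correlated at -0.35 to 0.30. Deviations from a group mean depend on each other, so these values cannot decide whether the numbers pair the libraries. The summed variant level, 0.861 times mock, was 0.942 times on FPKM. With a library left out, the ratio to mock of the clustered sum ran over 1.15 to 1.32, of the variant sum over 0.842 to 0.893, and the median of clustered genes over 0.04 to 0.30 and of variant genes over -0.21 to -0.06. Counting identical copies once, chosen after seeing the data, gave 1.23 and 0.859 times mock. Scaling moved the median log2 fold change of all genes to at most 0.07.

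Some log2 fold changes near 0 turned sign. With no filter on low counts that of HIST1H1C was -0.016, of H1F0 -0.012 and of HIST2H2BE -0.00011. With libraries scaled by total alone, HIST1H2AG was at 0.039 and HIST2H3C at 0.031. With the block HIST2H2BE was at -0.0062. With a library left out, the ranges that crossed 0 were HIST1H1C -0.18 to 0.15, HIST1H2AG -0.15 to 0.048, HIST2H2BE -0.27 to 0.16, HIST1H3H -0.014 to 0.19, HIST2H3C -0.17 to 0.14, H1F0 -0.19 to 0.15, H1FX -0.40 to 0.085, H2AFZ -0.054 to 0.30, SLBP -0.017 to 0.29 and CENPA -0.23 to 0.13. The cause was not tested. Counts of a few per library limit the 22 histone genes outside the test.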

Other observations

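Histone pseudogenes also drew counts. Of 34 rows annotated as histone pseudogenes, 22 had a count and 6 had at least 100 over the 6 libraries. H3F3AP4, a copy of H3F3A, held 423, 311 and 323 counts in knockdown libraries, against 298, 527 and 500 counts in mock libraries. HIST2H2BC held 178, 176 and 196 counts in knockdown libraries, against 170, 177 and 134 counts in mock libraries. Both were named after their values were seen, and no test was run on them.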
